A study of Mus musculus with 12 samples.

Results

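The comparison of AAV-TKT with AAV-GFP covered 6 of the 12 libraries of the series, 3 in each group, and all 13178 genes of the table that holds them. Every mouse was C57BL/6J and 8 weeks old, and every mouse, the AAV-GFP controls included, had a spinal cord injury 72 h before collection. An adeno-associated virus had been given through the sciatic nerve 4 weeks earlier, carrying transketolase (Tkt) in one group and green fluorescent protein, which served as the control cargo, in the other. RNA came from the sciatic dorsal root ganglia of levels L4 to L6. The sources used here give neither the serotype nor the promoter of the viruses, nor the share of neurons that took them up. Nothing there says whether the 3 replicates of a group were separate animals, so the p-values measure the spread between these libraries, which may be technical.

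A dorsal root ganglion holds the cell bodies of sensory neurons, each wrapped by satellite glia, together with Schwann cells, fibroblasts, vessels, resident macrophages and blood. Its neurons fall into classes that are told apart by marker genes: large myelinated proprioceptors and touch neurons, thin myelinated and unmyelinated pain and itch neurons, and unmyelinated low-threshold touch neurons. Transketolase moves carbon units between sugar phosphates, and so links glycolysis with the pentose phosphate pathway, a source of ribose and of NADPH. An adeno-associated virus given into a nerve can reach the neuron bodies by transport along axons. Values below are FPKM, a fragment number divided by transcript length in kilobases and by library size, given in the order of replicates 1, 2 and 3, AAV-GFP before AAV-TKT. A difference is AAV-TKT minus AAV-GFP on the log2(FPKM + 1) scale, which understates the change of genes with low values.

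The labelled source, ganglion neurons, was checked against neuronal markers. The defining markers were high in every library, with Tubb3, the neuronal beta tubulin, at 1523, 1380.2 and 1319 against 1581, 1806 and 1525 FPKM and Rbfox3, the nuclear protein NeuN, at 99.7, 106 and 96.4 against 119, 127 and 119 FPKM. The libraries were not neurons alone, since Fabp7, which marks satellite glia, was at 184, 105.2 and 147 against 113, 62.2 and 130.4 FPKM, and the myelin gene Mbp at 36.3, 31.98 and 36.98 against 31.03, 24.4 and 28.7 FPKM. In such bulk samples, fewer cells of a type and less RNA per cell cannot be told apart. Library totals ran from 413635 to 456084 FPKM. Rn7s2 alone held 12.6%, 6.32% and 11.0% of them in AAV-GFP and 10.9%, 11.3% and 11.0% in AAV-TKT. Pearson correlations over genes were 0.973 to 0.9854 within groups (6 pairs) and 0.9717 to 0.9837 between groups (9 pairs). Read depth was not given, but 5 small nucleolar RNA genes that share 1 exon length had values in whole steps to within 0.06 of a step. One step was worth 0.6694, 0.6507 and 0.7378 FPKM in the AAV-GFP libraries and 0.8937, 0.8683 and 0.9597 FPKM in the AAV-TKT libraries, so a single read weighed more in each AAV-TKT library. Between 49 and 55 listed genes were at 0 in each AAV-GFP library, and between 57 and 80 in each AAV-TKT library.

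Tkt and 1 small nucleolar RNA, Gm24895, passed the threshold, an adjusted p under 0.05 in limma over all 13178 genes, which is 0.0152% of them (1 gene, or 0.00759%, in each direction). Tkt was at 106, 101.7 and 98.1 against 223, 259 and 262 FPKM, so its highest control library lay well under its lowest AAV-TKT library. Tkt rose by 1.27 on the log2 scale (SE 0.0843, limma adjusted p = 0.0054). The exact two-sided permutation p for Tkt was 0.1, the smallest that 3 against 3 libraries allow. Without AAV-GFP replicate 1 its adjusted p was 0.0512 in limma, at a difference of 1.298. Gene-level values cannot tell RNA made from the virus from RNA of the mouse gene, which lies on chromosome 14 from 30548359 to 30574720 of GRCm38 on the plus strand.

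Gm24895 is the only called gene apart from Tkt, and its sequence is shown because a gene this short shares letters with longer ones. It is annotated at chr12:109646129-109646202 of GRCm38, plus strand, within exons of the long noncoding RNA Rian, an imprinted transcript that hosts many small nucleolar RNAs. Capitals mark TGATGA and CTGA, the letters of the boxes C and D of this RNA class, searched on the transcript strand. Gm24598, a near copy at chrX:64496584-64496657, plus strand, is not among the listed genes.
Gm24895: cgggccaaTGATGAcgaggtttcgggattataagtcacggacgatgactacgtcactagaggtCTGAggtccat
Gm24598: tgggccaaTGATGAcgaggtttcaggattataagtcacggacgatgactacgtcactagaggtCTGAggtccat
These sequences, from GENCODE M21 transcripts, have 72 of 74 bases equal, and 248 of 343 annotated small nucleolar RNAs of 60 to 90 bases (72.3%) hold both boxes. All 59 of the 16-base words of Gm24895 also occur in Rian transcripts, and 42 of them in Gm24598, so its reads could be divided among these genes by the authors' counting.

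Gm24895 was at 12.3, 7.37 and 15.7 FPKM in AAV-GFP and was listed at 0 in all 3 AAV-TKT libraries (log2 difference -3.62, SE 0.236, limma adjusted p = 0.0054). A listed 0 is no fold change, and its adjusted p was 0.0512 without AAV-GFP replicate 1. The host was not at 0, with Rian at 173, 176 and 268 against 142, 161 and 176 FPKM (difference -0.34, limma adjusted p = 0.516). Meg3, the imprinted RNA upstream of Rian, was at 38.3, 26.96 and 172 against 41.5, 26.6 and 40.6 FPKM, with AAV-GFP replicate 3 alone far above the rest. Of the 49 listed small nucleolar RNA genes, 26 had a negative and 23 a positive difference, and Gm24336 had the next smallest p, at 6.63, 4.98 and 13.05 against 1.48, 2.91 and 3.20 FPKM.

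Beyond these genes the groups were described by separation, which means that all 3 libraries of one group lay above all 3 of the other. By this count 1485 genes (11.3%) were higher and 949 (7.2%) lower in AAV-TKT, 18.5% of genes in all, and 10.6% had an unadjusted limma p under 0.05. Counts of separated genes in the lists below are to be read beside these shares. Among the 3295 genes with the highest mean levels the shares were 20% higher and 2.79% lower. The balance of directions depended on scaling: with equal totals per library, 669 genes were higher and 1531 lower. Among larger differences, of at least 0.5, 33 genes (0.25%) were higher and 177 (1.34%) lower. At a difference of at least 1 there were 9 higher (0.0683%) and 66 lower (0.501%). The first principal component, with 29.9% of the variance, also placed all AAV-GFP libraries (scores -9.61, -2.74 and -26.5) below all AAV-TKT libraries (9.97, 19.3 and 9.5). AAV-GFP replicate 2 lay nearest to the AAV-TKT libraries on it.

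Lists of genes were used to say which classes these genes belong to. All listed genes had a mean of at least 1.00041 FPKM over the 6 libraries. A gene low in 1 group was therefore listed only if it was high enough in the other, which limits these tallies. Blood cell lists held 35 listed genes and gave 20 of the 177 lower genes, and histone genes gave 23 of the 177 from 65 listed genes. The other cell type lists gave 9 of the 177 from 186 genes, the other gene class lists 16 from 1299, and immunoglobulin segments outside those lists 3 from 37. A further 36 were noncoding genes or pseudogenes, and 70 were coding genes in none of the lists. Among the 66 genes lower by at least 1, blood lists gave 19, histones 19, noncoding genes and pseudogenes 11, and coding genes in no list 10. Of the 33 higher genes, 15 were noncoding or pseudogenes and 13 coding genes in no list, and 0 came from the blood lists. Of the squared differences summed over all genes, blood lists carried 8.32%, histones 7.55%, immunoglobulin segments 7.97%, and genes that are not protein-coding 38.4% from 8.06% of the genes. Genes with a mean under 5 FPKM, 30.9% of the table, carried 47.5%. These sets overlap, so their shares cannot be added. The immunoglobulin segments also count as not protein-coding, and Igkc and Ighm are in the blood lists too.

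**Figure D1:**
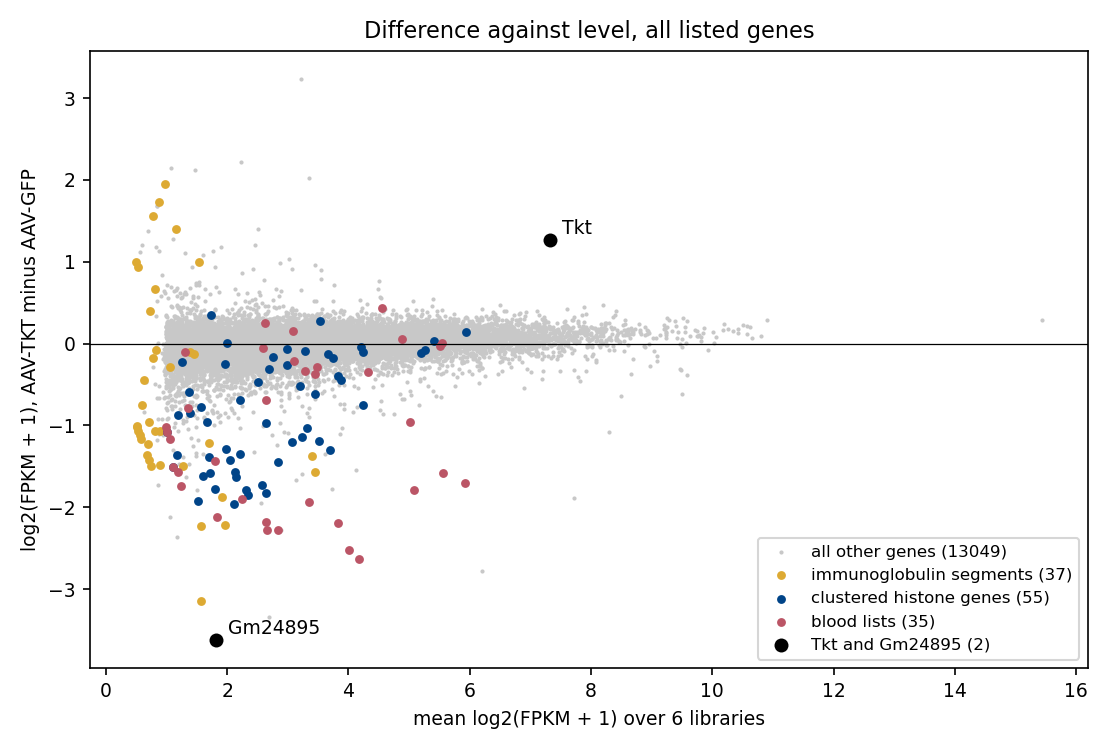
Each point is 1 listed gene, with its mean log2(FPKM + 1) over the 6 libraries on the x axis and its AAV-TKT minus AAV-GFP difference on the y axis. Tkt stands alone at the upper right, and most of the 55 clustered histone genes and the 35 genes of the blood lists lie below 0 at low to middle levels.

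Blood markers set the frame for the other lower genes, because their levels also varied among the AAV-GFP libraries. The list score of a library is the mean over a list's genes of log2(FPKM + 1) minus the mean of that gene over the 6 libraries. Neutrophil scores were 1.14, 0.32 and 1.49 against -1.13, -0.77 and -1.05, from 12 of the list's 17 markers, with summed levels of 108 to 284 FPKM in AAV-GFP and 22.5 to 35.2 FPKM in AAV-TKT. Red cell scores were 0.78, -0.25 and 0.95 against -0.53, -0.58 and -0.38, from 10 of 14 markers. AAV-GFP replicate 2 thus had the lowest neutrophil and red cell scores of its group, and for red cells it lay nearer to the AAV-TKT libraries. The other blood lists placed it otherwise: monocyte and dendritic cell scores were 0.12, 0.42 and 0.51 against -0.47, -0.06 and -0.52 (8 genes), with AAV-GFP replicate 1 the lowest control, and B cell scores were 0.23, 0.68 and -0.45 against -0.69, 1.03 and -0.79 (4 genes), with AAV-GFP replicate 2 the highest control. The part of blood content in the results below was not tested, and these scores can be set beside each pattern.

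**Figure D2:**
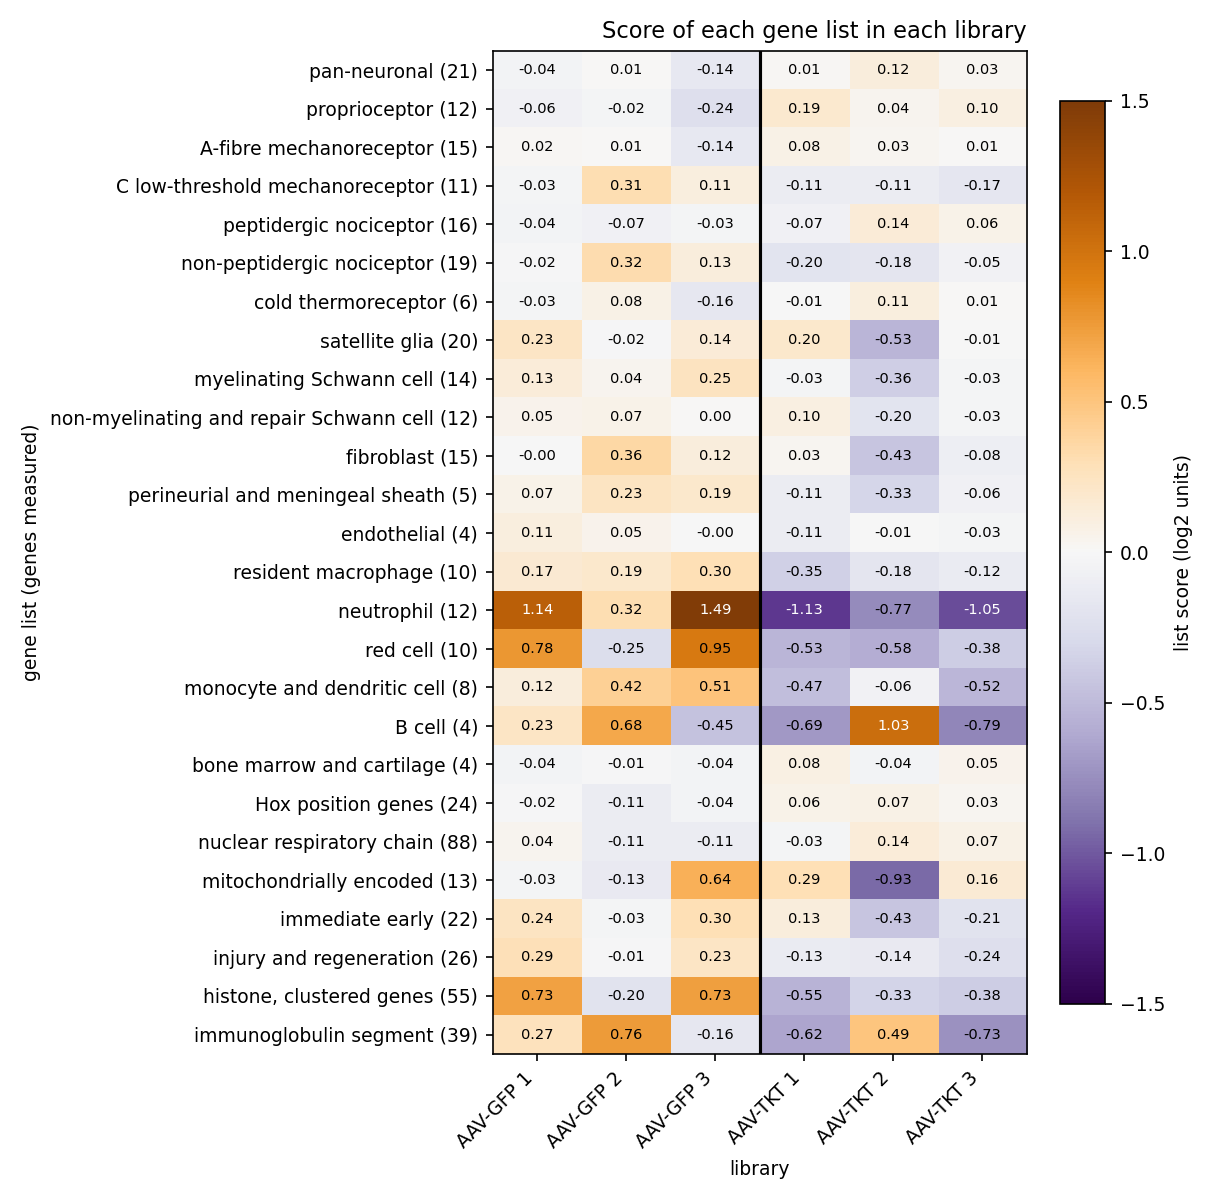
Each cell gives the score of 1 gene list (rows, with the number of genes measured) in 1 library (columns), as the mean over genes of log2(FPKM + 1) minus the mean of the 6 libraries. Neutrophil, red cell and clustered histone scores are high in AAV-GFP replicates 1 and 3 and lower in replicate 2, and AAV-TKT replicate 2 has the lowest satellite glia, Schwann cell and mitochondrially encoded scores.

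Of the 15 lower genes with the smallest p outside the blood lists, 6 are known from leukocytes and 4 are clustered histone genes, a grouping made after these genes were seen and not tested. Il1b, Cd177, Arhgdib, Fcer1g, Cybb, Hist1h2bf and Hist1h4j had AAV-TKT means of 0.37 to 0.87 FPKM. They were thus listed through their AAV-GFP values, since every listed gene had a mean of at least 1.00041 FPKM over the 6 libraries. Lyz2, the lysozyme of macrophages and neutrophils, was at 29.3, 23.7 and 34.9 against 7.77, 10.5 and 9.73 FPKM (log2 difference -1.54, SE 0.156, limma adjusted p = 0.0585). Il1b, the cytokine interleukin 1 beta, was at 2.75, 2.65 and 3.43 against 0.669, 1.03 and 0.636 FPKM, with the 3 controls close together. Cd177, a surface protein of neutrophils, was at 2.13, 1.73 and 3.42 against 0.335, 0.368 and 0.400 FPKM. The groups were far apart for all 3 genes, although none passed the threshold (limma adjusted p between 0.0585 and 0.162). Lyz2 passed with equal totals, at a mean of at least 5 FPKM, with a pseudocount of 0.1, with a robust prior and without AAV-GFP replicate 2, and both Lyz2 and Il1b passed among protein-coding genes alone and with weights per library. Arhgdib, a GTPase regulator of blood cells, was at 3.96, 2.17 and 4.52 against 0.522, 1.02 and 0.768 FPKM. Fcer1g, the signalling chain shared by several Fc receptors, was at 1.73, 2.13 and 3.20 against 0.486, 0.681 and 0.541 FPKM. Cybb, the catalytic subunit of the phagocyte oxidase, was at 2.10, 2.07 and 3.36 against 0.741, 0.854 and 1.01 FPKM. In AAV-GFP replicate 2, where neutrophil markers were lowest among the controls, Lyz2, Il1b, Arhgdib, Cd177 and Cybb were also the lowest of their group, by a small margin for Il1b and Cybb, and Fcer1g was not.

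Other lower genes belonged to other classes. Nts, the neuropeptide neurotensin, was at 13.03, 8.30 and 9.50 against 3.74, 5.33 and 3.81 FPKM (difference -1.08, SE 0.179, limma adjusted p = 0.234). Plaur, the urokinase receptor, which both injured sensory neurons and myeloid cells are known to express, was at 5.26, 5.09 and 5.22 against 2.80, 3.00 and 2.22 FPKM, a difference of -0.76. Ltbp1, which holds latent transforming growth factor beta in the matrix, was at 3.74, 3.18 and 5.16 against 1.93, 1.66 and 1.56 FPKM. The lowest control library exceeded the highest AAV-TKT library for all 3 genes, and none passed the threshold. Cldn34c1, of the claudin family, showed a smaller but even difference, at 5.95, 6.47 and 6.63 against 4.11, 4.43 and 3.81 FPKM. Hspa1b, the inducible 70 kDa heat shock protein, was at 36.8, 27.4 and 43.3 against 19.8, 18.5 and 18.7 FPKM, and its near-identical neighbour Hspa1a at 24.00, 17.2 and 24.1 against 13.9, 9.20 and 12.2 FPKM; reads may be split between this pair. All 3 AAV-TKT libraries had Hspa1b within 18.5 to 19.8 FPKM, while the controls varied more.

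**Figure D3:**
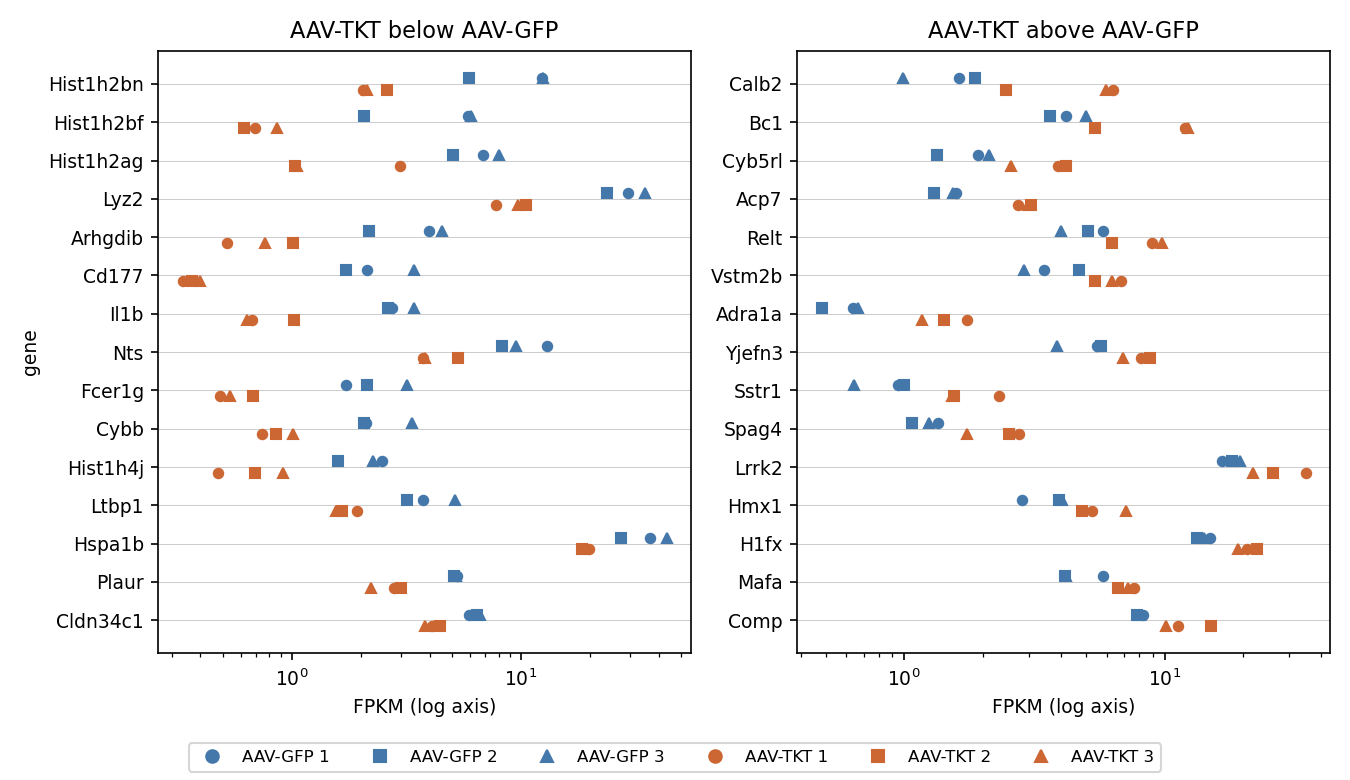
FPKM of each library on a log axis for the 15 lower (left) and 15 higher (right) genes with the smallest p outside the blood lists, with groups by colour and replicates by marker shape. The groups do not overlap for any of these genes, because separation was part of the rule that named them.

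The genes that were higher in AAV-TKT had smaller differences and mostly low levels. Calb2, calretinin, a calcium-binding protein of some sensory neurons, was at 1.62, 1.86 and 0.990 against 6.31, 2.47 and 5.93 FPKM (log2 difference 1.19, SE 0.295, limma adjusted p = 0.378). Bc1, a noncoding RNA of neuronal dendrites and cell bodies, was at 4.17, 3.62 and 4.99 against 11.9, 5.38 and 12.3 FPKM. In both genes AAV-TKT replicate 2 lay close to the controls and the other AAV-TKT libraries far above them. Acp7, an acid phosphatase, was at 1.57, 1.30 and 1.53 against 2.73, 3.06 and 2.99 FPKM, with the AAV-TKT libraries close together at about the same distance from all controls. Lrrk2, a large kinase known from familial Parkinson disease, was at 16.6, 18.1 and 19.4 against 34.7, 26.04 and 21.8 FPKM, where AAV-TKT replicate 3 lay just above the highest control. Comp, a matrix protein of cartilage and tendon, was at 8.23, 7.81 and 8.02 against 11.3, 15.01 and 10.1 FPKM.

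Receptors and transcription factors of neurons were among the higher genes as well. Adra1a, an alpha-1 adrenergic receptor, was at 0.638, 0.482 and 0.665 against 1.74, 1.42 and 1.17 FPKM, and Sstr1, a somatostatin receptor, at 0.943, 1.00 and 0.640 against 2.30, 1.55 and 1.52 FPKM. Both were near or under 1 FPKM in the controls and were listed through their AAV-TKT values. Mafa, a leucine zipper factor of touch neurons, was at 5.80, 4.12 and 4.19 against 7.64, 6.63 and 7.21 FPKM, and Hmx1, a homeobox factor of sensory neurons, at 2.82, 3.92 and 4.02 against 5.26, 4.80 and 7.11 FPKM. Relt, a receptor of the tumour necrosis factor family, was at 5.82, 5.06 and 3.99 against 8.94, 6.28 and 9.78 FPKM. Each difference lay between 0.53 and 0.64 on the log2 scale. The remaining named genes, Yjefn3, Cyb5rl, Spag4, Vstm2b and H1fx, had differences between 0.53 and 0.69, and the 14 higher genes other than H1fx had a limma adjusted p of 0.234 to 0.381. H1fx, the replication-independent linker histone H1X, had the smallest, 0.21, at 14.9, 13.3 and 14.2 against 20.7, 22.6 and 19.2 FPKM.

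Replication-dependent histone genes lie in clusters and are made mainly in dividing cells; their mRNAs usually end in a stem-loop in place of a poly(A) tail. Of 55 clustered histone genes listed, 50 had a negative difference and 25 were separated and lower, against 7.2% of all genes, with 0 separated and higher. Their median difference was -0.85, against 0.01 for all listed genes, and it was -0.45 among those with a mean of at least 5 FPKM. The 10 other histone genes, most of which are made independently of replication, had a median of 0.006345, with 5 positive and 5 negative. H3f3a, which encodes the replacement histone H3.3, was lower at 47.4, 36.9 and 44.2 against 27.1, 33.7 and 34.6 FPKM, the opposite direction to H1fx. Clustered histone genes are near copies of each other, so the authors' counting may have divided reads among them. The libraries were made from polyadenylated RNA, so values of mRNAs without a tail may not follow their abundance.

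Within the clusters the families differed in how many genes were separated. The H3 family had 8 of 11 genes separated and lower, with sums of 115.7, 48.97 and 122.0 FPKM in AAV-GFP and 33.5, 44.8 and 38.8 FPKM in AAV-TKT. H2b had 8 of 14, H2a 6 of 14, H1 2 of 4 and H4 1 of 12. Sums of the H4 family were 195.0, 110.0 and 192.3 FPKM against 135.0, 116.2 and 118.4 FPKM, so AAV-GFP replicate 2 lay below all AAV-TKT libraries. Family sums of H2a, H2b and H1 overlapped between the groups too, and AAV-GFP replicate 2 had the lowest control sum in each.

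**Figure D4:**
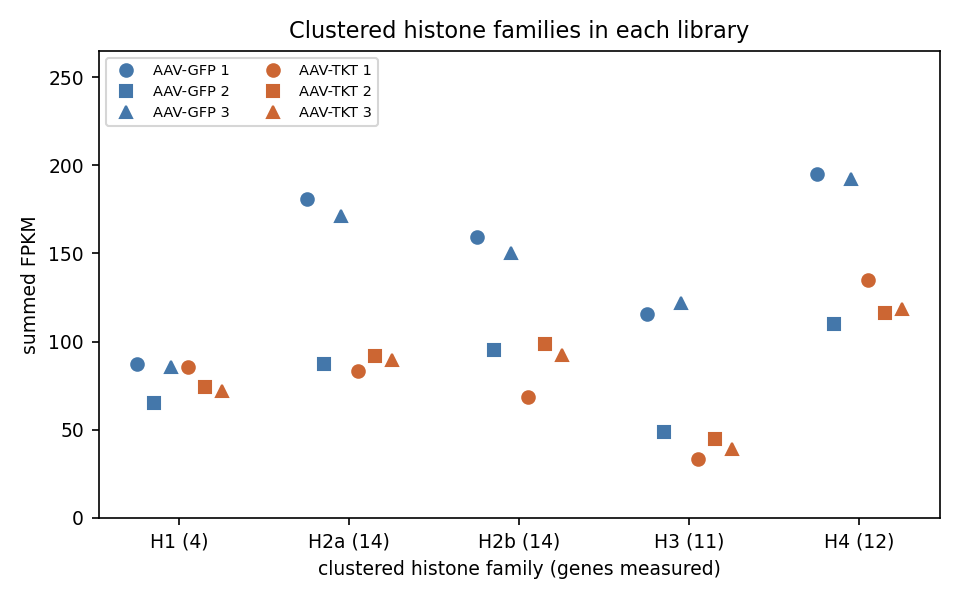
Summed FPKM of each clustered histone family (x axis, with the number of genes measured) in each library. AAV-GFP replicates 1 and 3 lie above the AAV-TKT libraries in H2a, H2b, H3 and H4, while AAV-GFP replicate 2 lies within or near their range.

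The end of these transcripts is shown for the 3 genes with the smallest p that hold its commonest 10-base word, because it was found in part of the clustered genes and in none of the 10 other histone genes. Capitals mark AAAGGCTCTT, found by counting words in the last 150 bases of the transcripts on the transcript strand, and 8 bases follow and precede it.
Hist1h2ag, chr13:22042484-22042509, minus strand: tcgccaacAAAGGCTCTTttcagagc
Hist1h2bf, chr13:23573766-23573791, minus strand: cctaacccAAAGGCTCTTttcagagc
Hist1h3c, chr13:23745048-23745073, minus strand: atttaaaaAAAGGCTCTTttaagagc
The letters GCTC in the word and gagc after it can pair, as the stem of the histone loop does (GENCODE M21 transcripts, GRCm38). The word occurred in 17 of 55 clustered histone genes, 0 of 10 other histone genes and 11 of 13105 other listed genes (0.0839%). The 17 genes with it had a median difference of -1.293, with 9 separated and lower. The 38 without an exact match had a median of -0.607, with 16 separated and lower. Whether their annotated end stops earlier or differs in single letters was not tested. These 38 include all 12 H4 and all 4 H1 genes, families with medians of -0.26 and -0.57. The medians of H2a, H2b and H3 were -0.92, -1.06 and -1.19. The part of family in the contrast by word was not tested.

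Single histone genes given here were picked among the 25 of 55 clustered genes that were separated and lower. Hist1h3c was at 11.01, 3.34 and 11.1 against 0.788, 1.90 and 1.06 FPKM. Hist1h2bn was at 12.4, 5.95 and 12.5 against 2.05, 2.60 and 2.13 FPKM (log2 difference -1.73, SE 0.252, limma adjusted p = 0.162). Hist1h2ag was at 6.85, 5.07 and 8.03 against 2.96, 1.03 and 1.06 FPKM, and Hist1h2bf at 5.89, 2.07 and 6.07 against 0.692, 0.619 and 0.863 FPKM. In each, AAV-GFP replicates 1 and 3 were high, AAV-GFP replicate 2 was the lowest control, and the AAV-TKT libraries were lower still, as that choice required. The clustered list scores were 0.73, -0.20 and 0.73 against -0.55, -0.33 and -0.38, which places AAV-GFP replicate 2 as the red cell score does, and the part of blood or marrow cells in this difference was not tested. Without AAV-GFP replicate 2 the median was -1.086, and without AAV-GFP replicate 1 it was -0.60. Of 14 listed cell cycle genes, 12 were negative and 3 (21.4%, against 7.2% of all genes) separated and lower, and their summed levels overlapped, at 243 to 283 FPKM in AAV-GFP and 254 to 295 FPKM in AAV-TKT. Mki67, a nuclear marker of cycling cells, was at 2.39, 0.902 and 2.33 against 0.674, 0.411 and 0.363 FPKM, and Rrm2, a subunit of the enzyme that makes deoxynucleotides, at 2.08, 1.36 and 2.06 against 0.516, 0.796 and 0.547 FPKM. Of the bone marrow and cartilage list 4 of 13 genes were listed, and its defining markers Acan and Bglap were not.

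Markers of sensory neuron classes differed in sign, by small amounts. All 12 proprioceptor markers had a positive difference, 4 of them separated and higher (background 11.3%), with a median of 0.17. Pvalb, parvalbumin, the defining marker of this class, was at 38.1, 35.2 and 30.6 against 52.7, 44.6 and 46.1 FPKM, and it is also the only gene of the skeletal muscle list that was listed. Vstm2b was at 3.45, 4.70 and 2.89 against 6.82, 5.38 and 6.27 FPKM and Whrn, the scaffold protein whirlin, at 6.59, 6.00 and 6.39 against 9.73, 6.97 and 8.07 FPKM. The other defining marker, the transcription factor Runx3, was at 3.50, 3.50 and 2.71 against 3.88, 3.29 and 3.09 FPKM, where the groups overlapped. List scores were -0.06, -0.02 and -0.24 against 0.19, 0.04 and 0.10, so the groups did not overlap.

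Markers of the A-fibre touch neurons were split. Of 15 markers, 5 were separated and higher (33.3%, against 11.3% of all genes) and 4 separated and lower (26.7%, against 7.2%). Their median was 0.15, but 0.08 with equal totals and 0.07 without AAV-GFP replicate 3. The vesicular glutamate transporter Slc17a7 was at 80.2, 74.4 and 73.8 against 106, 89.3 and 92.8 FPKM, and Nefh, the heavy neurofilament, at 679, 675 and 619.7 against 873, 785 and 797 FPKM. In contrast the neurotrophin receptor Ntrk2, a defining marker, was at 41.4, 39.8 and 38.4 against 38.00, 25.6 and 34.4 FPKM, Necab2, the other one, at 6.73, 6.91 and 6.55 against 5.78, 5.92 and 4.54 FPKM, and the secretion factor Cadps2 at 16.3, 17.4 and 13.5 against 11.9, 11.9 and 11.5 FPKM. The list score therefore hides members that were separated in opposite directions.

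Markers of C low-threshold mechanoreceptors, unmyelinated touch neurons of hairy skin, shared 1 sign. All 11 had a negative difference, against 46.3% of all genes, with a median of -0.29. Of them 4 were separated and lower (36.4%, against 7.2% of all genes). The defining marker Fam19a4, a secreted chemokine-like protein, was at 12.1, 16.3 and 12.4 against 10.1, 11.2 and 10.4 FPKM, and the other, tyrosine hydroxylase Th, at 22.6, 35.4 and 30.3 against 22.4, 27.05 and 21.1 FPKM. P2ry1, an ADP receptor, was at 27.5, 32.4 and 27.7 against 21.8, 24.8 and 19.9 FPKM. Osmr, the oncostatin M receptor, which itch neurons also express, was at 4.85, 6.74 and 5.62 against 4.30, 4.58 and 4.30 FPKM. AAV-GFP replicate 2 was the highest library for each of these genes, and AAV-GFP replicate 1 lay near the AAV-TKT libraries for Th. List scores were -0.03, 0.31 and 0.11 against -0.11, -0.11 and -0.17, and the median was -0.17 without AAV-GFP replicate 2. In the neutrophil and red cell scores this library is the lowest control.

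Non-peptidergic nociceptor markers also had AAV-GFP replicate 2 as their highest library. Of 19 listed, 18 were negative and 6 separated and lower (31.6%, against 7.2% of all genes), with scores of -0.02, 0.32 and 0.13 against -0.20, -0.18 and -0.05. Il31ra, the receptor of the itch cytokine interleukin 31, was at 4.62, 5.81 and 5.19 against 3.72, 3.42 and 2.86 FPKM. The lysophosphatidic acid receptor Lpar5 was at 9.53, 12.3 and 10.1 against 7.70, 7.06 and 7.59 FPKM. Mrgprd, the defining receptor of the largest group of these neurons, was at 48.04, 66.02 and 51.2 against 46.4, 49.3 and 49.3 FPKM, and its groups overlapped. The median was -0.22 with all libraries and -0.38 without AAV-GFP replicate 1.

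Peptidergic and cold-sensing markers showed no common shift. Of 16 peptidergic markers, 11 were positive, 3 separated and higher and 1 separated and lower, with a median of 0.07. Calca, which encodes the peptide CGRP, was at 1516, 1439 and 1454 against 1223, 1994 and 1649 FPKM, with AAV-TKT replicates 1 and 2 the lowest and highest of all. Tac1, the substance P precursor, was at 159, 145 and 152 against 144, 158 and 169 FPKM. Trpm8, the cold and menthol channel, was at 5.73, 8.54 and 6.77 against 6.38, 10.4 and 7.93 FPKM, where replicate 2 was the highest of both groups. Pan-neuronal markers were positive in 16 of 21, with 8 separated and higher (38.1%) and 1 separated and lower (4.76%). These shares were 11.3% and 7.2% of all genes, and 20% and 2.79% of the 3295 genes with the highest mean levels. Scores of the pan-neuronal markers were -0.04, 0.0077 and -0.14 against 0.01, 0.12 and 0.03. Their median was 0.14, but 0.04 with quantile normalization and 0.07 with equal totals, where the median of all genes was -0.048.

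Myelin, glial and fibroblast markers mostly had negative differences, with AAV-TKT replicate 2 the lowest library by list score. All 14 myelinating Schwann cell markers had a negative difference and 7 were separated and lower (50%, against 7.2% of all genes), with a median of -0.27. Mbp, myelin basic protein, whose values are given above, was separated, and so was Mal, a lipid raft protein of myelin, at 7.60, 7.69 and 8.13 against 5.48, 4.34 and 6.31 FPKM. Prx, periaxin, a defining marker, overlapped at 2.44, 2.00 and 3.41 against 2.81, 1.36 and 2.07 FPKM. Summed levels were 402 to 429 FPKM in AAV-GFP and 347 to 374 FPKM in AAV-TKT, and scores were 0.13, 0.04 and 0.25 against -0.03, -0.36 and -0.03. Without AAV-TKT replicate 2 the median was -0.20.

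Satellite glia markers were negative in 16 of 20, but only 1, the secreted inhibitor Sostdc1, was separated, at 9.26, 8.96 and 10.3 against 8.89, 5.62 and 7.09 FPKM. Their scores were 0.23, -0.02 and 0.14 against 0.20, -0.53 and -0.01, so AAV-TKT replicate 1 was among the highest libraries and AAV-TKT replicate 2 the lowest. The median of -0.25 was -0.05 without AAV-TKT replicate 2. Kcnj10, the potassium channel that defines these cells, was at 11.4, 8.47 and 10.7 against 10.2, 5.06 and 8.92 FPKM. Non-myelinating Schwann cell markers were mixed, with 9 of 12 negative. In that list Ngfr, the low-affinity neurotrophin receptor, which neurons also express, was at 335, 301 and 337 against 363, 377 and 348 FPKM, and the adhesion protein Chl1 at 31.7, 27.9 and 27.9 against 23.7, 24.4 and 23.9 FPKM.

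Fibroblast markers were negative in 14 of 15, with 1 separated and lower. Dcn, the proteoglycan decorin, was at 12.97, 27.5 and 16.8 against 13.3, 15.96 and 16.98 FPKM, and Col3a1, a fibrillar collagen, at 2.45, 4.48 and 3.68 against 2.91, 1.54 and 2.00 FPKM, both with overlapping groups and with AAV-GFP replicate 2 highest. The median of -0.35 was -0.18 without AAV-TKT replicate 2. Collagen and laminin genes were negative in 23 of 26 with 0 separated. Of the sheath list, all 5 listed genes were negative, and Moxd1, a monooxygenase-like protein, was separated at 9.44, 15.1 and 13.1 against 7.57, 7.81 and 8.60 FPKM. Rgs5, the defining marker of pericytes, was at 33.6, 50.1 and 33.7 against 21.3, 26.6 and 29.2 FPKM, with AAV-GFP replicate 2 the highest. Few vessel markers could be followed: 2 of 15 mural and 4 of 22 endothelial genes were listed, and the endothelial defining markers Cldn5 and Pecam1 were not. Egfl7, a secreted endothelial protein, was at 24.1, 22.6 and 19.99 against 24.6, 32.3 and 25.9 FPKM.

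Lyz2 is itself 1 of the 10 listed resident macrophage markers, and it had the lowest difference among them. Of these 10, 9 were negative and 4 (40%, against 7.2% of all genes), Lyz2 included, were separated and lower. The macrophage median was -0.35 (-0.54 with a pseudocount of 0.1), with scores of 0.17, 0.19 and 0.30 against -0.35, -0.18 and -0.12. Csf1r, the growth factor receptor of macrophages, was at 1.68, 1.68 and 2.32 against 1.15, 1.58 and 1.34 FPKM, and C1qc, a chain of complement C1q, at 1.87, 2.26 and 1.81 against 0.635, 1.06 and 1.19 FPKM. Here AAV-GFP replicate 2 had a level like the other controls, unlike in the neutrophil and red cell lists. The monocyte marker Ly6c2 was at 4.36, 4.82 and 4.93 against 0.762, 2.69 and 0.437 FPKM, with AAV-TKT replicate 2 between the other AAV-TKT libraries and the controls. Fn1, fibronectin, which monocytes and stroma share, was at 1.53, 2.61 and 3.12 against 1.11, 0.781 and 0.941 FPKM. Hdc, the histamine-forming enzyme of mast cells and basophils, was at 1.52, 1.04 and 2.39 against 0.373, 0.694 and 0.650 FPKM, the only one of 8 mast cell genes listed. No T or NK cell marker was listed (0 of 16).

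Immunoglobulin segments varied by single library. Igkc, the kappa constant region, was at 46.6, 91.2 and 19.7 against 12.02, 83.3 and 10.1 FPKM, and Ighm, the mu constant region, at 19.6, 22.2 and 15.99 against 15.4, 60.7 and 18.8 FPKM. AAV-GFP replicate 2 and AAV-TKT replicate 2 were the highest for Igkc, and AAV-TKT replicate 2 for Ighm. Of 39 segments, 29 had a negative difference, but 3 were separated and lower and 1 separated and higher, and the median of -1.01 was -0.52 without AAV-GFP replicate 2 and -1.79 with a pseudocount of 0.1. Ighg2b, the constant region of an IgG class, was the separated constant segment, at 4.27, 5.27 and 7.13 against 0, 1.37 and 0.0857 FPKM, and was named here after its values were seen.

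Immediate early genes, which neurons and other cells switch on within minutes of a stimulus or of tissue handling, had a negative difference in all 22 cases. Of them 6 were separated and lower (27.3%, against 7.2% of all genes). Their median was -0.32, and -0.18 without AAV-TKT replicate 2. Egr1, a zinc finger factor, was at 38.5, 30.5 and 35.6 against 28.9, 16.5 and 22.9 FPKM. Dusp6, a phosphatase of the ERK kinases, was at 10.5, 8.56 and 9.69 against 7.41, 6.13 and 6.58 FPKM, and Klf2, a Kruppel-like factor that vessels also express, at 1.70, 1.61 and 1.90 against 1.17, 0.673 and 0.859 FPKM. Fos was at 87.3, 68.2 and 82.7 against 98.1, 41.8 and 60.5 FPKM, with AAV-TKT replicate 1 the highest library of all. List scores were 0.24, -0.03 and 0.30 against 0.13, -0.43 and -0.21, so that AAV-TKT replicate 1 lay above AAV-GFP replicate 2. Tissue handling was not recorded, and its part was not tested.

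Of 26 injury and regeneration genes, 23 had a negative difference. Of the 26, 8 were separated and lower (30.8%, against 7.2% of all genes) and 1 separated and higher (3.85%, against 11.3%). Beside Nts and Plaur, Flrt3, a membrane protein that guides axons, was at 8.32, 8.45 and 10.00 against 6.38, 5.97 and 6.16 FPKM. Atf3, the transcription factor that marks axotomised neurons, was at 17.2, 11.7 and 17.1 against 12.4, 9.74 and 8.199 FPKM, and Sprr1a, a small proline-rich protein induced by injury, at 13.2, 4.00 and 12.6 against 4.46, 4.12 and 2.36 FPKM. The groups overlapped for both, since AAV-GFP replicate 2 lay among the AAV-TKT libraries. Gap43, the growth cone protein, went the other way without separation, at 159, 165 and 138 against 183, 184 and 157 FPKM. List scores were 0.29, -0.01 and 0.23 against -0.13, -0.14 and -0.24, again with AAV-GFP replicate 2 the lowest control, as for neutrophil and red cell markers.

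Stress responses had no common direction. Of 67 heat shock and chaperone genes, 9 were separated and higher (13.4%, against 11.3% of all genes) and 6 separated and lower (8.96%, against 7.2%). Hspb1, a small heat shock protein abundant in sensory neurons, was at 321, 271 and 300.0 against 378, 399 and 355 FPKM, opposite to Hspa1a and Hspa1b. The 22 genes of the unfolded protein and integrated stress lists had a median of -0.01 (-0.08 with equal totals), with 1 separated in each direction. Interferon response genes had 0 of 21 separated, at a median of -0.08. Among antioxidant genes, Gclm, a subunit of the glutathione-forming ligase, was at 119, 105.2 and 95.5 against 144, 129.6 and 129 FPKM, while Hmox1, heme oxygenase, was at 12.3, 16.02 and 12.9 against 9.56, 9.00 and 11.1 FPKM. Hmox1 is also a macrophage gene, and the part of macrophages in its difference was not tested.

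Most nuclear genes of energy metabolism had small positive differences. Of 88 nuclear genes of the respiratory chain, 78 were positive (53.7% of all genes were) and 15 separated and higher (17.0%, against 11.3% of all genes), with a median of 0.14. Among the 3295 genes with the highest mean levels, 2363 were positive and 20% separated and higher. Ndufa13, of complex I, was at 28.1, 27.1 and 27.4 against 34.6, 35.7 and 34.3 FPKM, and Cox6a1, of cytochrome c oxidase, at 224, 201 and 209 against 306, 262 and 250.2 FPKM. The group list scores overlapped, at 0.04, -0.11 and -0.11 against -0.03, 0.14 and 0.07. With equal totals the median was 0.07. The 13 mitochondrially encoded genes had a median of -0.35 with 0 separated, and 0.03 without AAV-TKT replicate 2. Their share of FPKM was 0.941%, 0.951% and 1.6% in AAV-GFP and 1.06%, 0.494% and 1.07% in AAV-TKT. Of 20 glycolysis genes, 7 were separated and higher (35%, against 11.3% of all genes) and 1 separated and lower (5%, against 7.2%). Pkm, pyruvate kinase, was at 739, 717 and 636 against 873, 891 and 775 FPKM. Proteasome genes were positive in 37 of 46, and 6 (13%, near the 11.3% of all genes) were separated and higher, with Psmd5, a chaperone of its assembly, at 19.9, 21.4 and 23.9 against 27.3, 25.1 and 28.2 FPKM.

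Of the 12 listed pentose phosphate genes, 2 were separated and higher, Tkt and the ribokinase Rbks, which was at 1.99, 2.29 and 2.25 against 3.27, 2.55 and 2.46 FPKM. G6pdx, the entry enzyme of the oxidative branch, was at 21.8, 23.7 and 24.4 against 21.3, 25.95 and 21.7 FPKM, and Taldo1, the transaldolase that acts beside Tkt, at 74.5, 69.98 and 65.3 against 69.4, 82.3 and 78.5 FPKM. Both overlapped between the groups. Cytoplasmic ribosomal protein genes had 3 separated in each direction of 83, with Rpl38 at 143, 114 and 143 against 184, 158 and 157 FPKM and Rpl10 at 50.6, 50.01 and 40.3 against 29.2, 33.3 and 34.5 FPKM. Many of these have processed copies in the genome that share reads. Cholesterol synthesis genes had 1 of 22 separated in each direction, the prenyl synthase Fdps at 136, 131 and 123.2 against 152, 156 and 139.9 FPKM and the demethylase Cyp51 at 43.7, 41.4 and 41.5 against 40.6, 35.8 and 34.5 FPKM.

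Ion channels of large and acid-sensing neurons were among the separated genes. Asic3, an acid-sensing channel, was at 74.8, 74.1 and 68.3 against 94.1, 103.2 and 87.5 FPKM, its relative Asic1 at 41.9, 39.5 and 40.6 against 54.9, 48.6 and 46.3 FPKM, and the ATP-gated channel P2rx6 at 10.9, 11.4 and 9.79 against 15.3, 14.3 and 13.6 FPKM. Of 23 transduction channel genes, 5 were separated and higher (21.7%) and 3 separated and lower (13%), against 11.3% and 7.2% of all genes and 20% and 2.79% of the 3295 genes with the highest mean. Scn4b, a sodium channel beta subunit of fast-firing neurons, was at 139, 132 and 122.5 against 181, 162 and 146 FPKM, while Cacna1h, the low-threshold calcium channel of C and touch fibres, was at 11.9, 12.4 and 14.3 against 9.29, 10.97 and 9.98 FPKM. Potassium channels had 12 of 60 separated and higher (20%) and 3 separated and lower (5.00%), led by Kcng4, a modulatory subunit, at 7.56, 5.60 and 6.02 against 9.50, 8.15 and 8.01 FPKM. Synaptic vesicle genes had 10 of 45 separated and higher (22.2%) and 2 separated and lower (4.44%), with Syt3, a calcium sensor, at 17.4, 14.4 and 15.8 against 20.5, 19.3 and 20.1 FPKM. The potassium channel median was 0.03, and -0.03 with equal totals.

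Neurofilament and tubulin genes had 9 of 41 separated and higher (22%), 1 separated and lower (2.44%) and a median of 0.11 (0.04 with equal totals). Of all genes 11.3% were separated and higher and 7.2% separated and lower. Of the 3295 genes with the highest mean these shares were 20% and 2.79%, so the higher count was near that of abundant genes. Stmn3, a tubulin regulator, was at 600.2, 522 and 523 against 681, 708 and 643 FPKM. Axon guidance genes had 8 of 51 separated and higher (15.7%) and 5 separated and lower (9.8%). Sema3f, a repellent ligand, was at 12.4, 12.5 and 12.4 against 14.4, 14.7 and 14.6 FPKM, its values tight within each group, and Sema4a, which immune cells also use, was at 3.49, 2.28 and 2.27 against 1.51, 1.58 and 1.65 FPKM. Microtubule motors had 9 of 49 separated and higher (18.4%) and 1 separated and lower (2.04%), with the kinesin light chain Klc2 at 117, 114 and 111 against 138, 136 and 121 FPKM. The sign of the motor median depended on scaling (0.04, and -0.03 with equal totals).

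Transcription factors of body position and of zinc finger families were counted as well. Of 24 Hox genes, which record the level of the spinal axis, 19 were positive and 6 separated and higher (25%, against 11.3% of all genes). The Hox median was 0.10 (0.05 with equal totals). Hoxb9 was at 6.70, 7.24 and 7.15 against 8.85, 9.04 and 8.97 FPKM and Hoxb6 at 4.28, 3.71 and 3.56 against 5.18, 5.76 and 5.36 FPKM, and both had higher values in all AAV-TKT libraries. Kruppel-like factors were negative in 12 of 14 with 4 separated and lower (28.6%, against 7.2% of all genes). Among these were Klf4 at 1.77, 1.68 and 2.196 against 1.33, 0.708 and 1.04 FPKM and Klf3 at 6.60, 7.27 and 6.42 against 4.25, 5.19 and 5.14 FPKM. The 369 C2H2 zinc finger genes had 13 separated and higher and 29 separated and lower, 3.52% and 7.86% of them. AAV-TKT replicate 3 was the lowest library for each of the 4 Y-linked genes of the sex-linked list, and for 1 of the 3 other listed genes of that chromosome, with Eif2s3y at 13.6, 16.6 and 14.8 against 13.5, 13.2 and 6.83 FPKM and Kdm5d at 3.16, 4.33 and 3.71 against 3.72, 3.73 and 2.04 FPKM.

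The direction of separation varied with level. Genes were ranked by mean level and cut into 4 equal groups. In the group with the lowest mean, 1 to 3.845 FPKM, 151 of 3295 genes were separated and higher and 379 separated and lower. In the group with the highest mean, from 26.48 FPKM, 660 were separated and higher and 92 separated and lower. By exon length, the group of the longest genes, from 6847 bases, had 252 higher and 285 lower, and the other groups of genes had more higher than lower genes. Processed pseudogenes had 4 higher and 27 lower of 182 (2.2% and 14.8%), while bidirectional promoter RNAs had 4 higher and 0 lower of 17 (23.5% and 0%). Over all genes these shares were 11.3% and 7.2%. Among pseudogenes, Gm10774 was at 4.04, 7.77 and 2.07 FPKM in AAV-GFP and listed at 0 in all AAV-TKT libraries, and Gm12895 was listed at 0 in all AAV-GFP libraries and at 2.05, 3.41 and 1.48 FPKM in AAV-TKT. Pseudogenes share reads with their parent genes, so these values are uncertain.

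**Figure D5:**
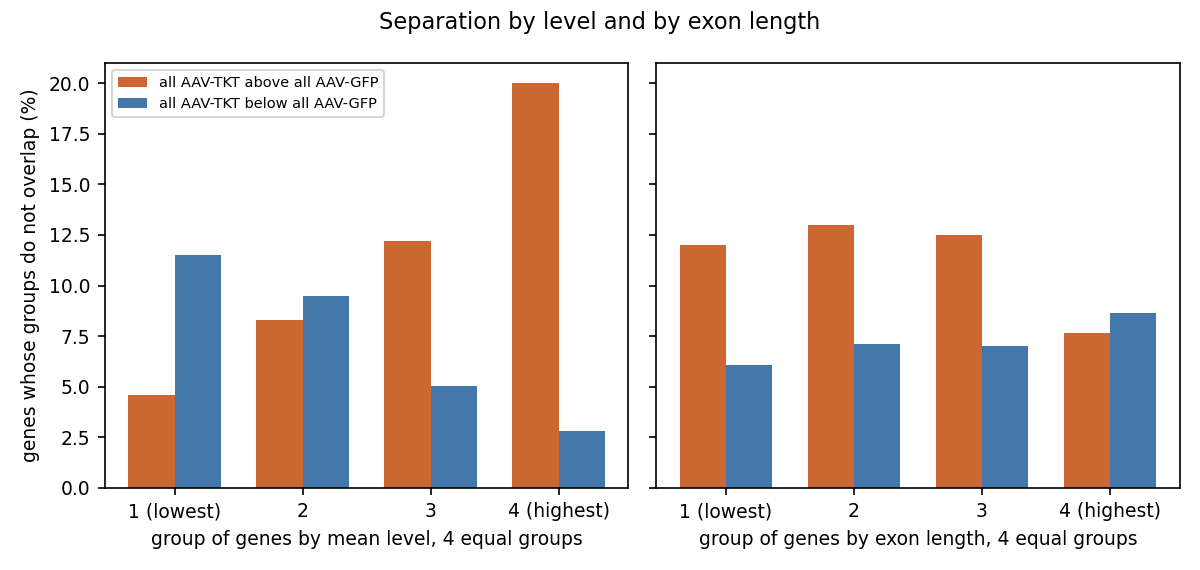
Percent of genes whose groups do not overlap, with AAV-TKT above or below AAV-GFP, in 4 equal groups of genes by mean level (left) and by exon length (right). The share above grows and the share below shrinks from the lowest to the highest level, and the directions are nearly equal in the group of longest genes.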

How the data were processed

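Polyadenylated RNA was extracted with a column kit for small samples (RNeasy Micro) and made into strand-specific libraries, per the labels' protocols. Per the submitters' processing notes, bcl2fastq 2.20, FastQC and Trim Galore were used, with the build GRCm38. The authors deposited FPKM values per gene and library. Which aligner, counter and scaling made them is not stated there, and no read depths come with them, so counting error was not modelled. All 13178 genes had a mean of at least 1.00041 FPKM over the 6 libraries. Identifiers matched GENCODE M21 for 13170 genes.

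FPKM values were not treated as counts. Differences were tested on log2(FPKM + 1), pseudocount 1, with limma 3.58.1 (trended prior, two-sided) in R 4.3.3 and a Benjamini-Hochberg threshold of 0.05 over all genes. The fit was tested on simulated data. List counts and medians are descriptions without a p-value. The members and the 58 lists were chosen with earlier results of these data known. Named genes were those past the threshold and, per direction, the 15 smallest p among separated genes with a difference of at least 0.5, a coding or long noncoding biotype, a settled name and no place in 6 blood lists. For each cell type list its 2 defining markers and 2 others were named, for each class up to 3 genes and for each biotype 2, and some of these are given in counts only or are not reported here. Genes outside this rule (Rian, Meg3, H3f3a, Hist1h3c, Fos, Atf3, Sprr1a, Gap43, G6pdx and Ighg2b) were chosen after their values were seen. Alternatives were 10 other settings and each of the 6 libraries left out. The other 6 libraries of the series, from a table normalized separately, were not used here.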

Additional observations from a re-analysis of the deposited data

How the results depend on the processing

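In all, 2 genes passed in the main analysis. The count was 4 with equal totals (3 lower), 4 when the mean had to reach 5 FPKM (3 lower), 8 among protein-coding genes alone (7 lower), 5 with a pseudocount of 0.1 (4 lower), 23 with weights per library (2 higher, 21 lower), and 3 with a robust prior (2 lower). With single libraries left out it ran from 1 to 40, with 1 to 2 higher and 0 to 38 lower. The single call without AAV-GFP replicate 1 was Rnu3a. Of the 40 without AAV-GFP replicate 2, 13 were in blood lists and 13 were histone genes. With single libraries left out Tkt ran from 1.227 to 1.343 and missed the threshold without AAV-GFP replicate 1, and under the other settings it ran from 1.177 (quantile normalization) to 1.299 (weights per library). Lyz2 was among the genes gained with equal totals, at a mean of at least 5 FPKM, among protein-coding genes, with a pseudocount of 0.1, a robust prior or weights, and without AAV-GFP replicate 2. Correlations of same-numbered deviations were 0.0326, 0.0707 and -0.0144, and those of differently numbered ones ran from -0.104 to 0.0795. With 3 libraries per group these values cannot show whether same-numbered libraries were processed together. With a replicate block 0 genes passed (0 higher, 0 lower). Tkt was then at 1.268 (limma adjusted p = 0.0729), and 1592 genes had an unadjusted limma p under 0.05.

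Separated genes numbered 669 higher and 1531 lower with equal totals, and 485 lower at a mean of at least 5 FPKM. With a difference of at least 0.5, 12 were higher and 62 lower at a mean of at least 5 FPKM, 17 higher among protein-coding genes, 58 higher and 277 lower with a pseudocount of 0.1, and 53 higher with quantile normalization. Leaving out a library, which makes separation easier by construction, gave 1891 to 2586 higher, 1428 to 1653 lower, and with at least 0.5, 52 to 75 higher and 192 to 382 lower.

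List medians near 0 changed sign, and so did the mitochondrially encoded median without AAV-TKT replicate 2, as given above. With equal totals, heat shock was at -0.0149, potassium channels -0.0304, GABA and glutamate receptors -0.0157, microtubule motors -0.0281, pentose phosphate -0.0152 and all genes -0.0478. All genes were at -0.00837 with median-of-ratios scaling. At a mean of at least 5 FPKM the endothelial median was 0.169 and the bone marrow and cartilage median 0.524, the latter 0.0501 with quantile normalization. C2H2 zinc fingers were at 0.0192 with quantile normalization. With 1 library left out in turn, bone marrow and cartilage ran from -0.111 to 0.0469, transduction channels from -0.0470 to 0.0154, and GABA and glutamate receptors from -0.0178 to 0.0602. Of single genes, Dcn was at 0.055 with weights per library, Aldh1l1 at -0.00394 with equal totals and -0.0604 with weights, Calca at -0.0773 with quantile normalization, Tac1 at -0.0302 with equal totals and -0.0375 with quantile normalization, and Runx3 at -0.0335 with weights. With 1 library left out in turn, Dcn ran from -0.464 to 0.0509, Slc2a1 from -0.0790 to 0.0103, Aldh1l1 from -0.0121 to 0.139, Calca from -0.0492 to 0.303, Scn7a from -0.154 to 0.0481, Kdm5d from -0.313 to 0.00557, Tac1 from -0.0140 to 0.0979, Runx3 from -0.0308 to 0.116, and Ighm from -0.157 to 0.799. The cause was not tested. Of the list medians under all alternatives, 14 values changed sign in lists whose main median exceeded the spread between libraries. Of the rest, 642 stayed within that spread and 57 moved beyond it. Sign changes in lists with a main median inside the spread are counted among these. Low values, where 1 read weighs most, limit the comparison, and depth was not given.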
